A study of Homo sapiens with 8 samples.

Results

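The mature arms of miR-193a, miR-193b, miR-365a and miR-365b were examined in sorted cells of HCT116, a line derived from a human colorectal carcinoma. They were found by name in the count table. The 8 names are held in 7 of the 2026 entries of the count table, because miR-365a-3p and miR-365b-3p have the same sequence and share 1 entry. All 7 entries had reads in every sample and all 7 were tested. The filter on low counts asked for 3.63 reads per 1000000 in at least 2 samples, which miR-365b-5p reached in 0 and miR-365a-5p in 1 of the 2 CD44v6-negative samples, so both passed only through the group in which they were higher. Small RNA reads were counted in 2 CD44v6-positive and 2 CD44v6-negative samples, each joining 2 sequencing entries of 1 combined identity. CD44v6, a variant-exon isoform of the cell surface glycoprotein CD44, is known as a marker of tumour-initiating cells in the colon. Both groups came from spheroids grown in serum-free medium with growth factors in low-attachment flasks. They were sorted by antibody staining for CD44v6, with dead cells removed by propidium iodide, and they carry no other labelled treatment or genotype. All samples come from a single cell line, and in such bulk samples fewer cells of a type and less RNA per cell cannot be told apart.

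A miRNA hairpin is cut by the enzymes Drosha and Dicer into a short duplex, of which a strand from the 5′ side (5p) or the 3′ side (3p) is loaded into an Argonaute protein. The loaded strand finds its messenger RNAs mainly through its seed, bases 2 to 8, so that the arms of a hairpin have different targets. miR-193 and miR-365 are encoded in neighbouring pairs at separate places of the genome. miR-193a-3p and miR-193b-3p are known as growth-restraining miRNAs that repress cyclin D1 (CCND1), the survival protein MCL1 and the urokinase PLAU. miR-365-3p is known to repress CCND1 and BCL2, and the miR-193b and miR-365 pair is also known for its part in brown fat development.

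The mature sequences, taken from RefSeq on GRCh38.p14 where all 8 names were found, are shown because the results are given arm by arm and because shared sequence limits which hairpin a read can be given to. Capitals mark the seed.
hsa-miR-193a-3p: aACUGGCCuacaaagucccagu
hsa-miR-193b-3p: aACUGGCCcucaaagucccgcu
hsa-miR-193a-5p: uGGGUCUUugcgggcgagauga
hsa-miR-193b-5p: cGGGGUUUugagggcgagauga
hsa-miR-365a-3p and hsa-miR-365b-3p: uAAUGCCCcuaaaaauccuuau
hsa-miR-365a-5p: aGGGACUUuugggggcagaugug
hsa-miR-365b-5p: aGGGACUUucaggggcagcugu

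The 3p arms of miR-193a and miR-193b share all 7 seed bases and 18 of 22 positions. Counted from the 5′ end with the base of miR-193a first, they differ by U9C, A10U, A20G and G21C. Their 5p arms also match at 18 of 22 positions but at only 5 of the 7 seed positions, with U1C, U5G, C6U and C11A, so these are seeds of their own. The 5p arms of miR-365a and miR-365b share their seed and match at 19 of the 22 positions compared. No other entry of the table with a RefSeq sequence has any of these 5 seeds. Both arms of miR-193b hold 59.1% G and C, the arms of miR-193a 59.1% (5p) and 50% (3p), miR-365a-5p 56.5%, miR-365b-5p 59.1% and miR-365-3p only 31.8%.

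MIR193B (chr16:14303967-14304049, plus strand) and MIR365A (chr16:14309285-14309371, plus strand) lie 5235 bases apart in introns of the long noncoding RNA gene MIR193BHG, by GENCODE release 29 on GRCh38. MIR193A (chr17:31559996-31560083, plus strand) overlaps no other annotated gene of its strand. MIR365B (chr17:31575411-31575521, plus strand) lies 15327 bases further on in an exon of the long noncoding RNA AC003101.1. MIR4725, which lies next to MIR365B, had 0 reads for both arms in every sample. The hairpins of the miR-193 pair are printed with the mature arms in capitals, since the split of reads between those arms is described below.
MIR193A: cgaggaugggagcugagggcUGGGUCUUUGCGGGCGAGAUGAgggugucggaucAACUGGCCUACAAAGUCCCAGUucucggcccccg
MIR193B: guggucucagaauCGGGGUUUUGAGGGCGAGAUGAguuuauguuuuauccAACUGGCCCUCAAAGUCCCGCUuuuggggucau

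Depth differed with the groups and bears on every value below. The CD44v6-negative samples 1 and 2 held 7880631 and 4592278 reads, and the CD44v6-positive samples 1 and 2 held 919802 and 154481. Levels are CPM (reads per 1000000 reads, scaled by TMM), and the 3 reads that remain possible where none was seen equalled 0.574, 0.544, 3.24 and 15.6 CPM in these samples. The epithelial and intestinal markers miR-200b, miR-200c, miR-141, miR-192, miR-194 and miR-215 were all detected, at a summed 17780 to 30097 CPM in CD44v6-negative and 13378 to 16840 CPM in CD44v6-positive samples. Their members differed in direction by fitted log2 fold change, CD44v6-positive minus negative. miR-141-3p (-2.41), miR-200c-3p (-0.61) and miR-200b-3p (-0.23) were lower. miR-192-5p (0.80), miR-194-5p (0.74) and miR-215-5p (1.73) were higher, and 0 of the 6 had an edgeR adjusted p under 0.05. Markers of other tissues were not at 0. The liver miRNA miR-122-5p was at 4.59 and 3.99 CPM in the negative and 48.6 and 610 CPM in the positive samples. The 6 blood markers summed to 1322 to 3024 CPM and 3460 to 3724 CPM, most of it miR-486-5p. Their members differed in direction too, with 3 of the 4 tested higher and 1 lower by fitted log2 fold change. The red cell miRNA miR-451a was at 24.9 and 7.62 CPM against 15.1 and 281 CPM. miR-144-3p was at 36.5 CPM in positive sample 2 (7 reads) and at most 2.87 CPM elsewhere. miR-142-3p was at 15.1 and 20.3 CPM against 9.71 and 20.8 CPM, with a log2 fold change of -0.37. miR-150-5p was at 4.59 and 2.54 CPM against 5.40 and 5.21 CPM, and miR-223-3p at no more than 5.21 CPM. The 3 stromal markers summed to 247 and 249 CPM against 169 and 198 CPM, but their members differed in direction. miR-145-5p was at 179 and 197 CPM against 100.4 and 57.3 CPM, and miR-199a-3p, joined with miR-199b-3p, at 66.6 and 51.1 CPM against 68.0 and 135 CPM. The mesenchymal miR-143-3p, looked at after its values were seen, was at 1084 and 665 CPM against 746 and 4972 CPM. The 2 muscle markers summed to at most 6.47 CPM. Of the markers named here, miR-122-5p, miR-451a, miR-144-3p, miR-199a-3p and miR-143-3p were all highest in CD44v6-positive sample 2. miR-142-3p and miR-223-3p were highest there too, on 4 reads and 1 read, but miR-486-5p, miR-150-5p and miR-145-5p were not. The intestinal miR-192-5p, miR-194-5p and miR-215-5p were highest in that sample as well, at 4560, 235 and 250 CPM. The part of the other tissues' miRNAs in the results below was not tested.

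The 5p arm of miR-193b, scarce in CD44v6-negative cells, stood 5.39-fold higher in CD44v6-positive cells by the fitted fold change, with both positive samples above both negative ones, while the abundant 3p arms of miR-193b and miR-365 overlapped between the groups. The fitted values of the rare miR-365a-5p and miR-365b-5p were 4.84-fold and 3.32-fold higher, but both passed the filter only through the positive samples. For miR-365b-5p, 1 read in positive sample 2 already equals 5.21 CPM, above both negative values, so its lack of overlap carries no weight. miR-193a-3p was 3.72-fold lower, with both positive samples below both negative ones. The quasi-likelihood test of edgeR called none of the 7 at an adjusted p under 0.05, and 0 of all 570 tested miRNAs (0%). At an unadjusted p under 0.05, miR-193b-5p and miR-365a-5p lay higher, against 13% of all tested miRNAs, and miR-193a-3p lower, against 17.5%. DESeq2 called miR-193b-5p alone among the 7, higher, where it called 8% of the miRNAs with an adjusted p higher and 6.29% lower. limma-voom called none of the 7, and 0.351% of all tested in each direction. Groups without overlap were seen in 24.9% of all tested miRNAs with the positive samples higher and in 34.6% with them lower. Of the 5 entries that reached the filter in both negative samples, miR-193b-5p was of the first kind and miR-193a-3p of the second.

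**Figure D1:**
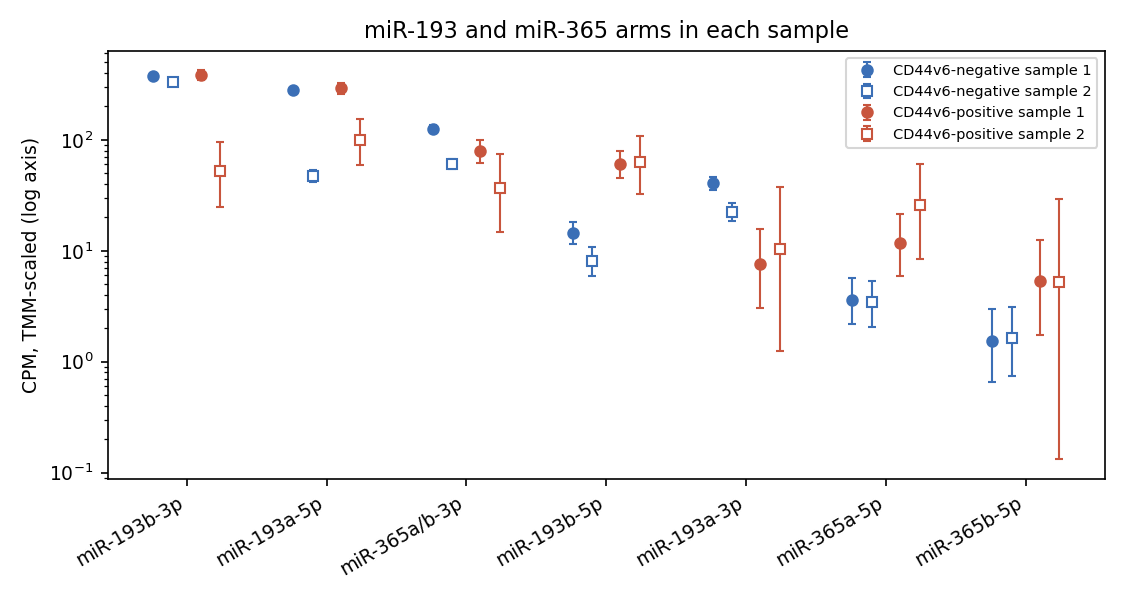
Level of each mature arm in the 4 samples as TMM-scaled CPM on a log axis, ordered by mean level, with exact Poisson 95% intervals that cover counting error only. Both CD44v6-positive samples lie above both CD44v6-negative samples for miR-193b-5p and miR-365a-5p and below them for miR-193a-3p, where the interval of positive sample 2 reaches 37.6 CPM, while for miR-365b-5p positive sample 2 is a single read with an interval of 0.132 to 29 CPM.

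Among the 3p arms, hsa-miR-193b-3p was the most abundant entry. It was read 1985 and 1837 times in CD44v6-negative and 354 and 10 times in CD44v6-positive samples 1 and 2. These were 380, 333, 382 and 52.1 CPM, so positive sample 1 matched the negative samples and positive sample 2 alone was low. The positive samples differed 7.33-fold from each other, more than the group means of 217 ± 233 and 356 ± 33.0 CPM (SD, n = 2) did. The log2 fold change was -0.68 ± 0.87 (SE; edgeR adjusted p = 0.630). Without CD44v6-positive sample 2 it turned to 0.32, and without CD44v6-positive sample 1 it was -2.89.

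hsa-miR-193a-3p, which carries the same seed, was read far less, at 213 and 124 times in the negative and 7 and 2 times in the positive samples. Its levels were 40.8 and 22.5 CPM against 7.55 and 10.4 CPM. Both positive samples lay below both negative samples, and the fitted difference on the log2 scale was -1.90 ± 0.75 (edgeR adjusted p = 0.15). The 2 reads of positive sample 2 give a ratio to the negative samples of 0.332 with an exact 95% counting interval of 0.0401 to 1.21, so in that sample alone a difference was not detectable at this depth. In positive sample 1 the ratio was 0.241, with an interval of 0.0961 to 0.502.

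Since the 3p arms of miR-193a and miR-193b share a seed, their sum describes how much of that seed was present. It was 421 and 356 CPM in the negative and 390 and 62.5 CPM in the positive samples, so positive sample 1 lay between the negative samples and positive sample 2 below them. miR-193b-3p made up 90.3% and 93.7% of these reads in the negative samples. In the positive samples it made up 98.1% (Wilson 95% interval 96.1 to 99.1) and 83.3% (10 of 12 reads, 55.2 to 95.3). The share in positive sample 1 thus lay above both negative shares. The interval of positive sample 2 spans both negative shares, so that sample gives no direction.

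miR-365-3p, which can come from MIR365A or MIR365B, was read 652 and 333 times in the negative and 73 and 7 times in the positive samples. At 125 and 60.4 CPM against 78.8 and 36.5 CPM the groups overlapped. The log2 fold change was -0.63 ± 0.68 (edgeR adjusted p = 0.564), close to the median of -0.31 over all tested miRNAs. It was 0.051 without CD44v6-negative sample 1 and 1.01 after a correction for GC content, which is low in this arm.

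The 5p arm hsa-miR-193b-5p gave the lowest adjusted p of the 7. It was read 76 and 45 times in the negative samples, and 56 and 12 times in the far shallower positive samples. The levels were 14.5 and 8.16 CPM against 60.4 and 62.5 CPM, so both positive samples were above the negative ones. The positive values were close to each other, but their exact 95% counting intervals were 45.6 to 78.5 and 32.3 to 109 CPM. The SD of the positive group below is thus smaller than counting error. Group means were 11.3 ± 4.51 and 61.5 ± 1.49 CPM (SD, n = 2), and the log2 fold change was 2.43 ± 0.65 (edgeR adjusted p = 0.110). Each positive sample on its own stood above the negative pair by counting error, with ratios of 5.36 (exact 95% interval 3.84 to 7.42) and 5.55 (2.79 to 10.1). DESeq2 gave an adjusted p of 0.0199 and limma-voom of 0.0873. The adjusted p ran from 0.00131 to 0.188 over the 13 alternatives, and without CD44v6-positive sample 2 it was 0.0311.

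The 5p arms of miR-365 were rare. hsa-miR-365a-5p was read 19 times in each negative sample and 11 and 5 times in the positive samples, which came to 3.64 and 3.44 CPM against 11.9 and 26.1 CPM. Both positive samples were above both negative samples, and the fitted difference was 2.28 ± 0.79 on the log2 scale (edgeR adjusted p = 0.130). hsa-miR-365b-5p was read 8 and 9 times in the negative and 5 times and once in the positive samples, at 1.53 and 1.63 CPM against 5.40 and 5.21 CPM. For it the fitted difference was 1.73 ± 0.84 (edgeR adjusted p = 0.216). The sample with 1 read gives a ratio to the negative samples of 3.29 with an exact interval of 0.0788 to 21, which leaves its level unknown at this depth.

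hsa-miR-193a-5p differed from the other 5p arms, being the second most abundant entry, with groups that overlapped. It was read 1462 and 263 times in the negative and 269 and 19 times in the positive samples, at 280 and 47.7 CPM against 290 and 99.0 CPM. In each group sample 1 was high and sample 2 low, and the 2 negative samples differed 5.87-fold. The log2 fold change of 0.27 ± 0.94 (edgeR adjusted p = 0.861) rests on which samples are kept. Leaving out sample 1 or sample 2 of the negative group gave 2.12 or -0.35, and leaving out sample 1 or sample 2 of the positive group gave -0.83 or 0.99.

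**Figure D2:**
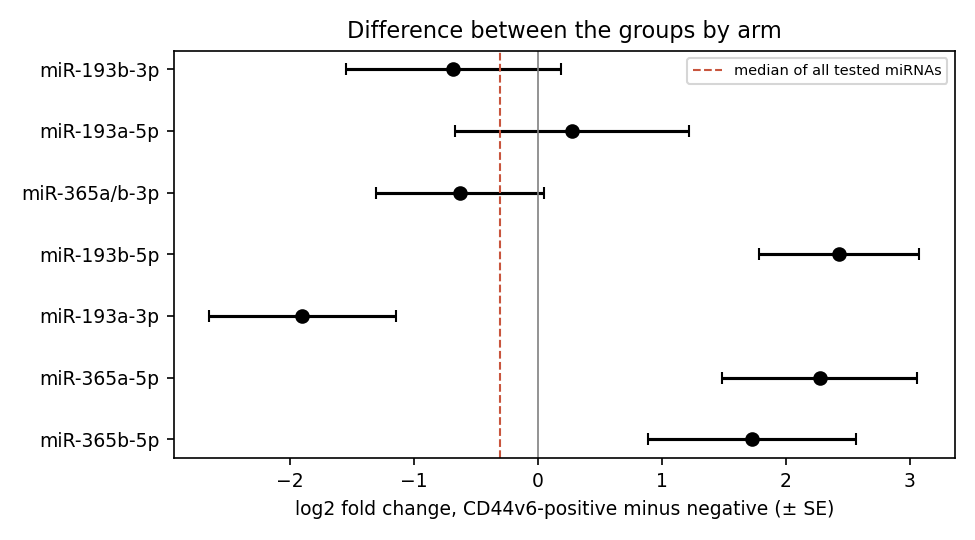
Log2 fold change of each arm, CD44v6-positive minus CD44v6-negative, with its standard error, beside the median of all 570 tested miRNAs (dashed line at -0.31). miR-193b-5p (2.43), miR-365a-5p (2.28) and miR-365b-5p (1.73) lie to the right, and miR-193a-3p (-1.90) to the left, while the other 3 arms lie within 1 standard error of 0.

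By mean CPM over the 4 samples the order from high to low was miR-193b-3p, miR-193a-5p, miR-365-3p, miR-193b-5p, miR-193a-3p, miR-365a-5p and miR-365b-5p. Every neighbouring pair in that order overlapped in its range over the samples. Among these neighbouring pairs only miR-365a-5p and miR-365b-5p kept their order in 4 of 4 samples. Such levels of different miRNAs also carry the ligation and amplification preferences of the library kit. All 7 entries together came to 845 and 477 CPM in the negative and 836 and 292 CPM in the positive samples, so the sum overlapped between the groups.

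The split of a hairpin's reads between its arms is taken within a library and does not depend on scaling between libraries. For miR-193b the 5p arm held 76 of 2061 reads (3.69%, Wilson 95% interval 2.96 to 4.59) and 45 of 1882 reads (2.39%, 1.79 to 3.18) in the negative samples. It held 56 of 410 reads (13.7%, 10.7 to 17.3) and 12 of 22 reads (54.5%, 34.7 to 73.1) in the positive samples. The 4 intervals place both positive samples above both negative ones, and the positive samples also apart from each other. The 5p arm was thus the minor arm in 3 samples and even with the 3p arm in the shallowest. An exact two-sided permutation test over the samples gave p = 0.333, the smallest that 2 against 2 samples allow.

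For miR-193a the 5p arm was the major arm in every sample. It held 87.3% and 68.0% of 1675 and 387 reads in the negative samples and 97.5% and 90.5% of 276 and 21 reads in the positive samples. Both positive samples lay above both negative ones, but the Wilson interval of positive sample 2 (71.1 to 97.3%) overlaps those of both negative samples (85.6 to 88.8% and 63.2 to 72.4%). With miR-365a and miR-365b pooled, the 5p arms held 3.98% and 7.76% of 679 and 361 reads in the negative and 18% and 46.2% of 89 and 13 reads in the positive samples. The Wilson intervals of this pooled share were 2.75 to 5.72% and 5.42 to 11.0% in the negative samples. In the positive samples they were 11.4 to 27.2% and 23.2 to 70.9%. The exact two-sided permutation p was 0.333 for miR-193a and for the pooled miR-365. A 5p share that was higher in both positive samples was seen in 38.3% of the 115 hairpins with at least 20 reads in every sample, and a lower one in 27%, so the direction by itself is frequent. The pooled miR-365, with 13 reads in positive sample 2, is not among these 115.

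**Figure D3:**
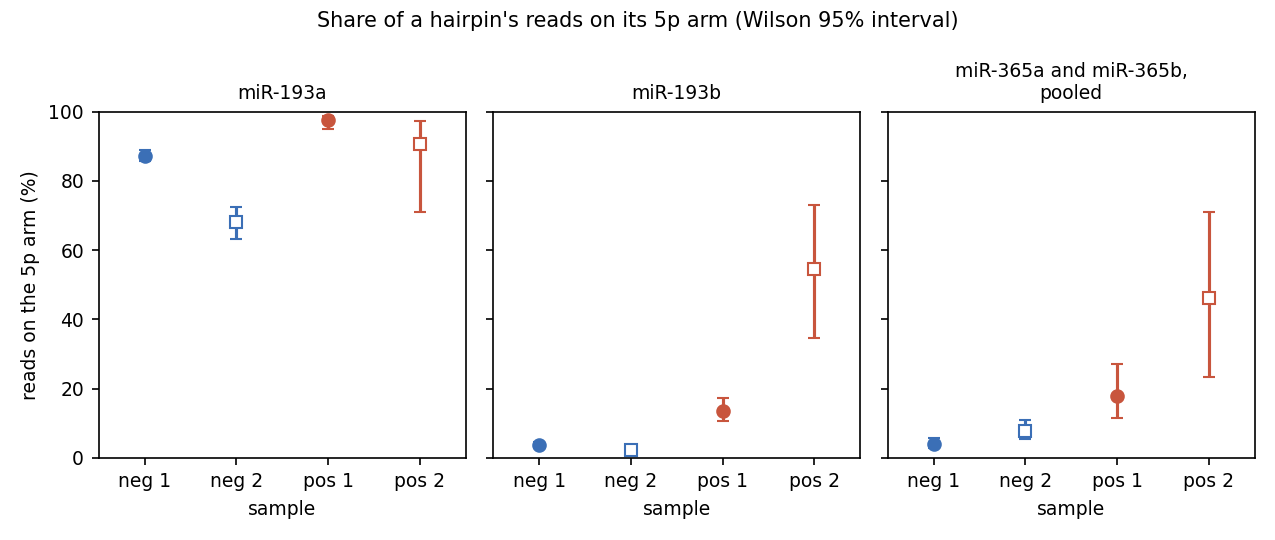
Percent of each hairpin's reads that fall on its 5p arm in CD44v6-negative samples 1 and 2 (blue) and CD44v6-positive samples 1 and 2 (red), with Wilson 95% intervals that cover counting error only. For miR-193b the share is 3.69% and 2.39% in the negative and 13.7% and 54.5% in the positive samples, and for miR-193a it is over 60% in all 4.

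Whether the arms of a hairpin differed in their change between the groups was tested with limma's diffSplice over the 137 hairpins with both arms tested. For miR-193b the log2 fold change of the 5p arm exceeded that of the 3p arm by 3.56 ± 1.09 (SE; limma adjusted p = 0.195). This was the third highest difference of the 137, and the fourth smallest p. For miR-193a the difference was 2.38 ± 1.36 (limma adjusted p = 0.386), the ninth highest. Neither passed, whereas 3 of the 137 hairpins did (2.19%), namely miR-18a, miR-31 and miR-106b. edgeR's exon-level test, which was run first, was read on the 5p arm of each hairpin only. On these arms it called 0 of the 137 (14 at an unadjusted p under 0.05). It gave miR-193b-5p an adjusted p of 0.235 and miR-193a-5p one of 0.9999. Its unadjusted p differed between the arms, at 0.00768 (5p) and 0.632 (3p) for miR-193b and 0.875 (5p) and 0.0704 (3p) for miR-193a. It is thus not a test of the difference between the arms. The miR-193b difference was 5.27 without CD44v6-positive sample 1 and 2.38 without CD44v6-positive sample 2, so that its size depends on the positive sample kept.

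**Figure D4:**
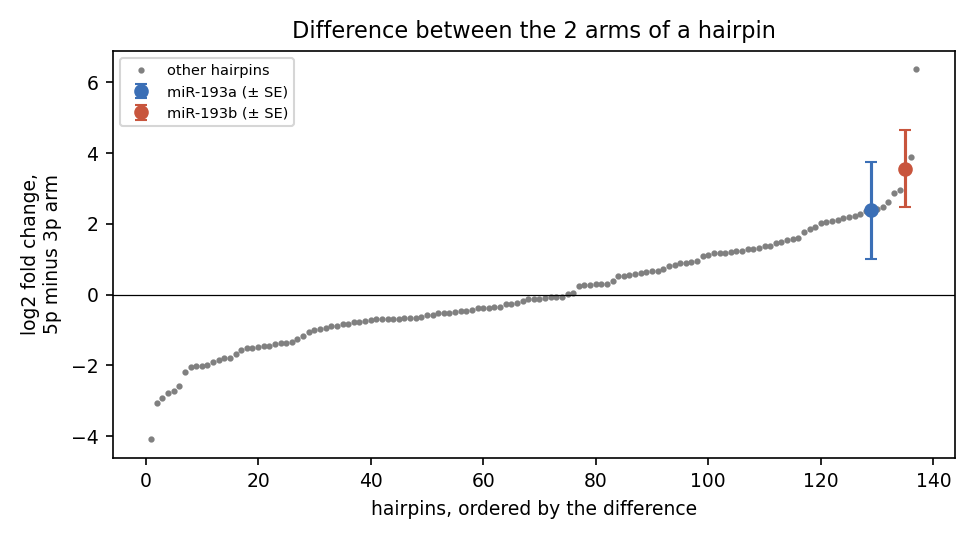
Log2 fold change of the 5p arm minus that of the 3p arm for each of 137 hairpins, ordered from low to high, with miR-193a (blue, 2.38) and miR-193b (red, 3.56) marked with their standard errors. Both lie toward the upper end, and neither passed the test over all hairpins.

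The miRNAs whose levels were most like those of the abundant arms were taken from 187 tested miRNAs with a mean of at least 100 CPM. Likeness was the root mean square difference of centred log2(CPM + 1) values over the 4 samples, a description with no test. miR-193a-5p was closest to miR-222-5p (0.44), miR-574-3p (0.50) and miR-125b-5p (0.50), all higher in sample 1 than in sample 2 of each group. miR-193b-3p was closest to miR-455-3p (0.29), miR-33b-5p (0.45) and miR-532-5p (0.53), all lowest in CD44v6-positive sample 2. miR-365-3p was closest to let-7g-5p (0.10), miR-130a-3p (0.12) and miR-103a-3p (0.17).

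**Figure D5:**
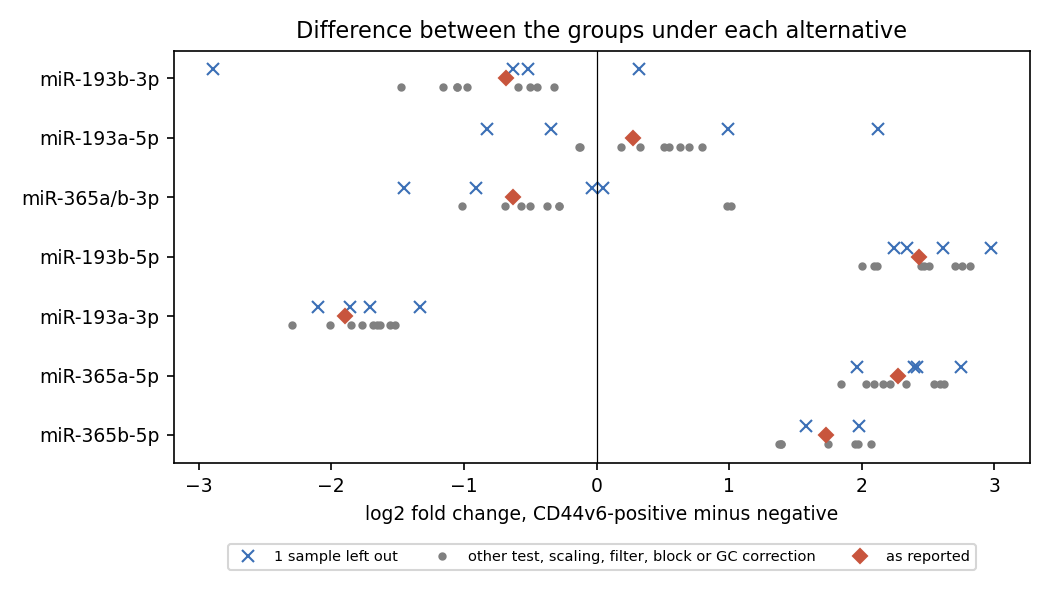
Log2 fold change of each arm as reported (diamond), with 1 sample left out (crosses) and under another test, scaling, filter, replicate block or GC correction (dots). The values of miR-193b-5p stay between 2.00 and 2.97 and those of miR-193a-3p between -2.29 and -1.33, while those of miR-193a-5p, miR-193b-3p and miR-365-3p fall on both sides of 0.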

How the data were processed

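The authors deposited whole-number counts of reads for each mature miRNA in 1 table. Per the file headers each of its 4 columns is a combined identity, so the 8 sequencing entries of the labels were counted as 2 samples per group. Separate cultures are not stated, and p-values may therefore reflect only technical spread between samples. The submitters' processing notes name CASAVA 1.8.2, cutadapt 1.10, Bowtie 0.12.9, DESeq2 and build GRCh38. What each tool did, the annotation and the handling of reads that map more than once is not given in the sources used here, so reads of near-identical arms cannot be assigned with certainty. A deposited normalized table was not used here.

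edgeR 4.0.16 in R 4.3.3 (TMM, filterByExpr with minimum count 10 and minimum total 15, quasi-likelihood test, Benjamini-Hochberg over 570 miRNAs, threshold 0.05) was the test, and each SE is the size of the log2 difference over the root of F. Arms were compared with limma 3.58.1 (voom, diffSplice). The tests were tried on simulated counts. Alternatives were DESeq2 1.42.0 on the filtered miRNAs, limma-voom, other scalings and filters, a replicate block, a GC correction and leaving out each sample. Intervals and floors cover counting error only, since PCR reads are not independent molecules. Named miRNAs were all members and the 3 most like each abundant member. A list of other miRNAs is not reported here. The members and lists were chosen with earlier results of these data known. The arm test and the minimum of 20 reads per hairpin were chosen after seeing the data. edgeR's exon-level test (diffSpliceDGE) was run first for the arms and replaced after its values were seen. Of the 25 hairpins in which it gave either arm an unadjusted p under 0.05, 24 had it for 1 arm and not the other. Both results are given.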

Additional observations from a re-analysis of the deposited data

How the results depend on the processing

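The count of miRNAs past the threshold over all tested was 0 with edgeR (74 higher and 100 lower at an unadjusted p under 0.05), and also 0 with upper quartile scaling and with the 10 CPM filter. It was 48 with total count scaling, 77 with no filter, 1 with the GC correction, 4 with limma-voom and 75 with DESeq2, and 26 to 55 with 1 sample left out. With the replicate number as a block it was 228 of 570, and 116 of 499 with the block and the GC correction together. The labels share only a number, and the deviations of same-numbered samples from their group means correlated at 0.375 over miRNAs, which are not independent. With the replicate block 4 of the 7 members passed, beside 228 of all 570 tested miRNAs. These members were at 2.44 for miR-193b-5p, 2.21 for miR-365a-5p, -2.01 for miR-193a-3p and -1.16 for miR-193b-3p. With the block and the GC correction 2 of the 7 passed, beside 116 of 499, at 2.11 for miR-193b-5p and -1.48 for miR-193b-3p.

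Upper quartile scaling moved the median log2 fold change of all tested miRNAs by 0.34 and total count scaling by 0.31. The higher share of miRNAs at an unadjusted p under 0.05 was 42.5% with TMM, 58.4% and 56.6% with those scalings and 57.9% with the GC correction. miR-193a-5p turned negative with no filter (-0.12), with the GC correction (-0.13) and without CD44v6-negative sample 2 or CD44v6-positive sample 1 (-0.83 to 2.12 over the samples left out). miR-193b-3p turned positive without CD44v6-positive sample 2 (-2.89 to 0.32). miR-365-3p turned positive with the GC correction (1.01), with that and the block (0.98) and without CD44v6-negative sample 1 (-1.45 to 0.051). In each the cause was not tested. miR-193b-5p and miR-193a-3p kept their direction under all 13 alternatives. miR-365a-5p did as well, and miR-365b-5p did under the 9 that gave it a tested value. These miR-365 5p arms passed the filter only through the positive samples, in which they were higher, so their kept direction carries no weight. miR-365b-5p was not tested with the 10 CPM filter or without either CD44v6-negative sample, and DESeq2 gave it no adjusted p. The arm difference of miR-193b passed with the block (3.16, limma adjusted p = 0.000176) and not with total count scaling (3.45, limma adjusted p = 0.303). That of miR-193a passed with neither (2.17, limma adjusted p = 0.0503, and 2.36, limma adjusted p = 0.627). With 1 sample left out the difference ran from 2.38 to 5.27 for miR-193b and from 1.03 to 3.37 for miR-193a. edgeR's exon-level test, read on the 5p arm only, does not test this difference and is not counted here. Depth limits miR-193a-3p and both miR-365 5p arms most, with 1 to 5 reads each in CD44v6-positive sample 2. It also limits the others in that sample, where miR-365-3p had 7 reads, miR-193b-3p 10, miR-193b-5p 12 and miR-193a-5p 19.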
